A study of Homo sapiens with 6 samples.

Results

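The cyclin-dependent kinase (CDK) inhibitors and the RB family form the brake on cell division that senescent cells engage. They comprise 10 genes: the CIP/KIP inhibitors CDKN1A, CDKN1B and CDKN1C, the INK4 inhibitors CDKN2A, CDKN2B, CDKN2C and CDKN2D, and the pocket proteins RB1, RBL1 and RBL2. They were taken by exact gene name from a table of 57819 genes, a rule that uses no measured value, and each name matched 1 row. All 10 passed the filter on low values, a mean of at least 10 normalised reads, which 19048 genes met.

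INK4 proteins bind CDK4 and CDK6 and keep them from pairing with D-type cyclins, whereas CIP/KIP proteins act on cyclin-CDK complexes, foremost those of CDK2. With these kinases held inactive, RB and its relatives p107 (RBL1) and p130 (RBL2) stay unphosphorylated and bound to E2F factors, and genes for DNA replication stay off. In fibroblasts with an active Ras oncogene, p16INK4a from CDKN2A and p21 from CDKN1A are the inhibitors classically tied to the arrest.

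The cells were IMR90 ER:Ras, human lung fibroblasts carrying Ras fused to an estrogen receptor domain that 4-hydroxytamoxifen (4OHT) switches on. All 6 libraries came from cells given 200 nM 4OHT for 3 days, so both groups share the active oncogene and no library of untreated cells was analysed here. The control group (n = 3) received a scrambled siRNA, siSCR, and the knockdown group (n = 3) an siRNA named si1 in the labels, directed at sin-lncRNA, a long noncoding RNA. PolyA RNA was read as single 50 bp reads. The series asks what depletion of sin-lncRNA does in senescence. The libraries describe a single line, and in bulk RNA fewer cells of a type and less RNA per cell cannot be told apart. The labels do not say whether replicates were separate cultures, so p-values measure the spread between these libraries, which may be technical.

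Reads in genes numbered 30271192 to 50913672 in controls and 22117324 to 27882280 in knockdowns, so depth and group cannot be told apart, and a fit on libraries thinned to the smallest total is given where it changes a call. Levels are given as RPM, the read count scaled to the library's effective size, on which 3 reads, the most that a count of 0 is taken to allow, equal 0.0596 to 0.134 RPM (counting error only). sin-lncRNA was at 3.70, 4.73 and 4.09 RPM in controls and at 0.493, 0.640 and 0.534 in knockdowns, which is -2.86 on the log2 scale (SE 0.18, adjusted p = 7.9e-07 in limma with Benjamini-Hochberg adjustment). The 8 fibroblast markers summed to 40103 to 41930 RPM in controls and 40115 to 41568 in knockdowns. Each of the 8 was called (limma, adjusted p under 0.05), 3 higher and 5 lower, so near-equal sums hide changes of single markers. Of all genes tested 41.0% were called, 17.5% higher and 23.5% lower. The 3 epithelial markers summed to at most 0.533 RPM, with KRT5 at 0 reads throughout, the 3 leukocyte markers to at most 0.117. The 2 endothelial markers measured summed to 1.67 to 1.83 RPM in controls and 2.20 to 2.60 in knockdowns. The 1 of them tested was called higher, as were 17.5% of all genes tested, and the part of these markers in the results was not tested.

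Promoter sequence is shown for the inhibitor that rose most (CDKN1A), the other inhibitor that rose (CDKN1B), and the INK4 gene and the RB relative whose groups separated downward (CDKN2D and RBL1). Each is the stretch of 250 bases before the RefSeq start in GRCh38.p14, read 5′ to 3′ on the gene's own strand, at chr6:36678464-36678713 (+) for CDKN1A, chr12:12717118-12717367 (+) for CDKN1B, chr19:10568980-10569229 (-) for CDKN2D and chr20:37095998-37096247 (-) for RBL1. Capitals mark the GC box GGGCGG on either strand in the first 3 genes and E2F words in RBL1.
CDKN1A: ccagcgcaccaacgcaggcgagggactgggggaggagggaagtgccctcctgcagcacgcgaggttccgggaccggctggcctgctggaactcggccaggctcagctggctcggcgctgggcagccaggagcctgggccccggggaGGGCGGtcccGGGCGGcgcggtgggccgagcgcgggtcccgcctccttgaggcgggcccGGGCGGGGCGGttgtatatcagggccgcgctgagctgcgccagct
CDKN1B: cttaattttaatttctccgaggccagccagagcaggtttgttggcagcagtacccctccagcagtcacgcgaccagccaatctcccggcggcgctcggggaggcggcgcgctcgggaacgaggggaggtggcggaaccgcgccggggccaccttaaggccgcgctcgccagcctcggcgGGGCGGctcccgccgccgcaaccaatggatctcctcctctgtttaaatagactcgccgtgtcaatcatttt
CDKN2D: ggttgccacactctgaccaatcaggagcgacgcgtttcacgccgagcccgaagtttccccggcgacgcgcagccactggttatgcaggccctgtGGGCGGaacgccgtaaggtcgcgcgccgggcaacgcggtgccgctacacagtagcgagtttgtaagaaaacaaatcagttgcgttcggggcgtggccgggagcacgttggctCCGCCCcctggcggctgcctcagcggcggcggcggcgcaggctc
RBL1: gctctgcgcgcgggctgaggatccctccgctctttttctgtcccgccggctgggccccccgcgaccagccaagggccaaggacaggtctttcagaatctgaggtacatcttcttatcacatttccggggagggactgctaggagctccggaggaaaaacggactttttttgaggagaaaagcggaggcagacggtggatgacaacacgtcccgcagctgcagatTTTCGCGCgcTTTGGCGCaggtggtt

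The words searched were the GC box GGGCGG, to which Sp1-family factors bind, the E2F words TTTCCCGC, TTTGGCGC and TTTCGCGC, and the TATA box TATAAA, each on both strands. RBL1 held 2 E2F words, starting 26 and 16 bases before the start, and E2F words occurred in 2.32% of the 35116 RefSeq windows of the same length. CDKN1A held 4 GC boxes, 2 of which share a base, CDKN1B held 1 and CDKN2D held 2, against 42.6% of windows with at least 1. GC boxes were also found in members without a call, 2 in CDKN2B and up to 5 per window in CDKN2C. CDKN2A held up to 1 per window, and RB1, RBL1 and RBL2 held 0. The number of boxes per window was not compared with all windows. No TATA word was found in these windows or in those of the other members (10.7% of windows hold it). Of the 10 genes, 9 matched a RefSeq window by symbol. For RB1 the window was chr13:48476200-48476449 (36.8% GC, no CG pair). Whether it lies at the main start of RB1 was not checked, so the main RB1 promoter may not have been searched. The word matches describe letters and are not measured binding sites.

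After knockdown of sin-lncRNA, CDKN1A, CDKN1B and RB1 were higher and CDKN2A, CDKN2D and RBL1 were lower. CDKN2A was called although its groups overlapped, and it lost its call in 8 of 18 alternatives, CDKN2D and RBL1 in 3 each and RB1 in 1. CDKN1C, CDKN2B, CDKN2C and RBL2 did not pass the test. Of the 10 genes 6 changed, 3 upward and 3 downward (limma, adjusted p under 0.05), against 41.0% of all genes tested (17.5% higher and 23.5% lower), and the median log2 fold change was -0.00028 against -0.04 over all genes tested. The excess of lower calls over all genes depended on scaling, since 3325 genes were higher and 4480 lower here but 3959 and 3783 under trimmed-mean (TMM) scaling, with a median of 0.0033, and 3798 and 3894 after quantile normalization. The median absolute log2 fold change was 0.38, against 0.23 over all genes tested. Without control replicate 3, the deepest library, 3 of the 10 changed, all upward, and 0 were lower. Calls over all genes tested also dropped in that fit, from 7805 to 5803 of 19048, with 2599 higher and 3204 lower.

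**Figure D1:**
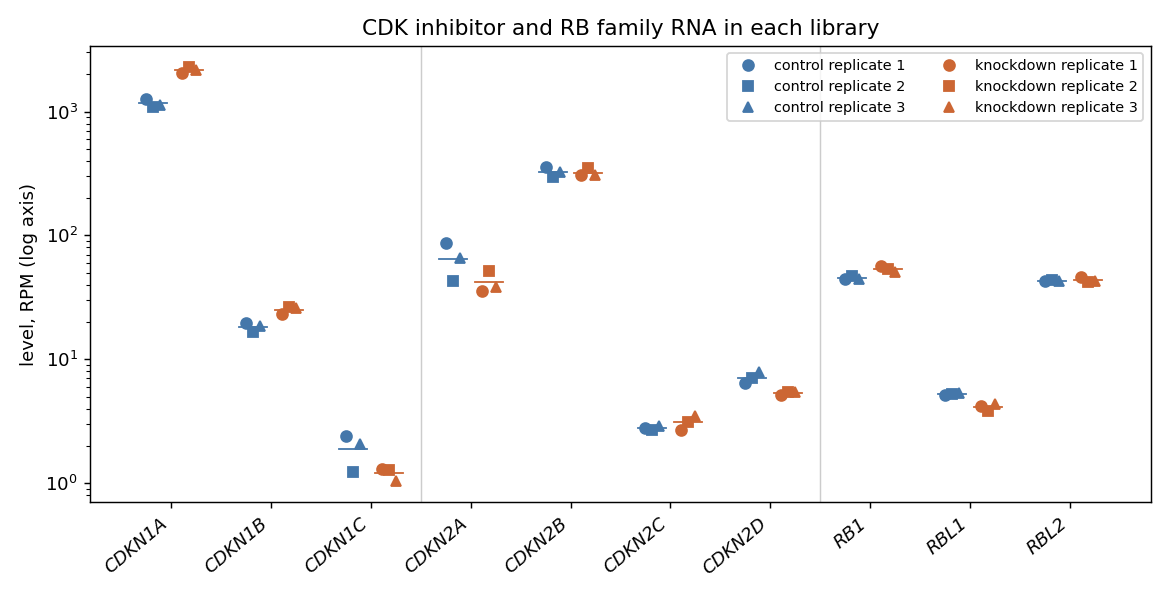
Level of each gene in each library in RPM on a log axis, with controls in blue, knockdowns in orange, symbols by replicate and short lines at group means. CDKN1A sits at 1093 RPM or higher in all 6 libraries and CDKN1C at 2.38 RPM or lower, and groups separate for CDKN1A, CDKN1B, CDKN2D, RB1 and RBL1.

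CDKN1A encodes p21, which inhibits cyclin-CDK2. Its level was 1267, 1093 and 1135 RPM in control replicates 1, 2 and 3 and 2063, 2301 and 2144 RPM in knockdown replicates 1, 2 and 3. Every knockdown library lay far above every control, and within a group the highest library exceeded the lowest by a factor of 1.16 in controls and 1.12 in knockdowns. The fold was 1.86 (95% interval 1.70 to 2.04), or 0.90 on the log2 scale (SE 0.06; limma adjusted p = 1.5e-06). Averaged over all 6 libraries, CDKN1A was at percentile 99.8 of abundance among the genes tested. The gene (ENSG00000124762.9) lies on chromosome 6 from 36644305 to 36655116 on the plus strand in hg19, with no overlapping gene in the table.

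CDKN1B encodes p27, which restrains cyclin E-CDK2 in resting cells and is controlled largely through breakdown of the protein. It measured 19.4, 16.6 and 18.6 RPM in controls and 23.4, 26.2 and 25.9 RPM in knockdowns. All 3 knockdowns lay above all 3 controls, with 498 to 937 reads in each control and 521 to 726 in each knockdown. The fold was 1.38 (95% interval 1.23 to 1.55), a log2 fold change of 0.47 (SE 0.08; limma adjusted p = 0.00066). The gene (ENSG00000111276.6) spans 12867992 to 12875305 on the plus strand of chromosome 12 in hg19.

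CDKN1C encodes p57, an imprinted inhibitor known from development. It was the scarcest of the 10 genes, at 2.38, 1.23 and 2.09 RPM in controls and 1.3, 1.28 and 1.03 in knockdowns, from 29 to 105 reads per library (ENSG00000129757.8, hg19 chromosome 11, 2904443 to 2907111, minus strand). Control replicate 2 lay among the knockdowns while the other controls lay above them. The log2 fold change of -0.60 (SE 0.24) did not pass (limma adjusted p = 0.069), with a 95% interval of -1.13 to -0.07. Without control replicate 2 it was -0.88 and passed (limma adjusted p = 0.0041, range over the alternatives 0.0041 to 0.230).

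CDKN2A yields p16INK4a and, from an upstream start in another reading frame, p14ARF, which binds MDM2. The table holds 1 row for both (ENSG00000147889.12, chromosome 9, 21967751 to 21995300, minus strand), so the transcripts were not told apart. It measured 86.8, 42.6 and 65.2 RPM in controls and 35.7, 51.5 and 38.4 in knockdowns. The groups overlapped, since knockdown replicate 2 exceeded control replicate 2, and controls differed among themselves by a factor of 2.04, the widest range of the 10 genes within controls. The log2 fold change was -0.59 (SE 0.21; limma adjusted p = 0.044, range over the alternatives 0.00025 to 0.225).

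The CDKN2A call depended on which libraries were kept. No call remained without control replicate 1 (log2 fold change -0.35, limma adjusted p = 0.148), control replicate 3 (-0.56, 0.116), knockdown replicate 1 (-0.49, 0.143) or knockdown replicate 3 (-0.54, 0.139). Without control replicate 2 the log2 fold change of CDKN2A was -0.86 (limma adjusted p = 0.00025) and without knockdown replicate 2 it was -0.75 (0.024). Robust and untrended variance models gave CDKN2A adjusted p-values of 0.225 and 0.159 in limma, and TMM scaling 0.058.

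CDKN2B encodes p15INK4b, whose gene (ENSG00000147883.9, hg19 chromosome 9, 22002902 to 22009362, minus strand) adjoins CDKN2A. It was the second most abundant inhibitor, at 357, 298 and 327 RPM in controls and 309, 347 and 307 in knockdowns, and the groups overlapped throughout. The log2 fold change was -0.03 with a 95% interval of -0.18 to 0.12 (limma adjusted p = 0.79), so changes beyond a fold of 0.885 or 1.09 lay outside the interval. CDKN2B-AS1, the antisense RNA across the locus also called ANRIL, was at 0.57 to 0.94 RPM in all 6 libraries (log2 fold change -0.16, SE 0.24; limma adjusted p = 0.63) and amounted to at most 2.63% of CDKN2A and 0.316% of CDKN2B reads.

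CDKN2A and CDKN2B shared part of their order over libraries. Control replicate 1 was the highest library for both, and within each group the same library led, control replicate 1 and knockdown replicate 2. The 1855 genes with the highest GC content (at least 60.6%) followed a like order, with medians relative to each gene's mean of 0.23, -0.09 and 0.14 in controls and -0.23, 0.04 and -0.06 in knockdowns. CDKN2A (61.4% GC), CDKN1C (63.8%) and CDKN2D (61.3%) belong to these GC-rich genes and CDKN2B (44.6%) does not. The median log2 fold change of the GC-rich genes was -0.18, and its part in these results was not tested beyond the correction that follows. After the trend with GC content and length was removed, CDKN2A stood at -0.42 (limma adjusted p = 0.037), CDKN1C at -0.43 (0.11) and CDKN2D at -0.24 (0.090).

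**Figure D2:**
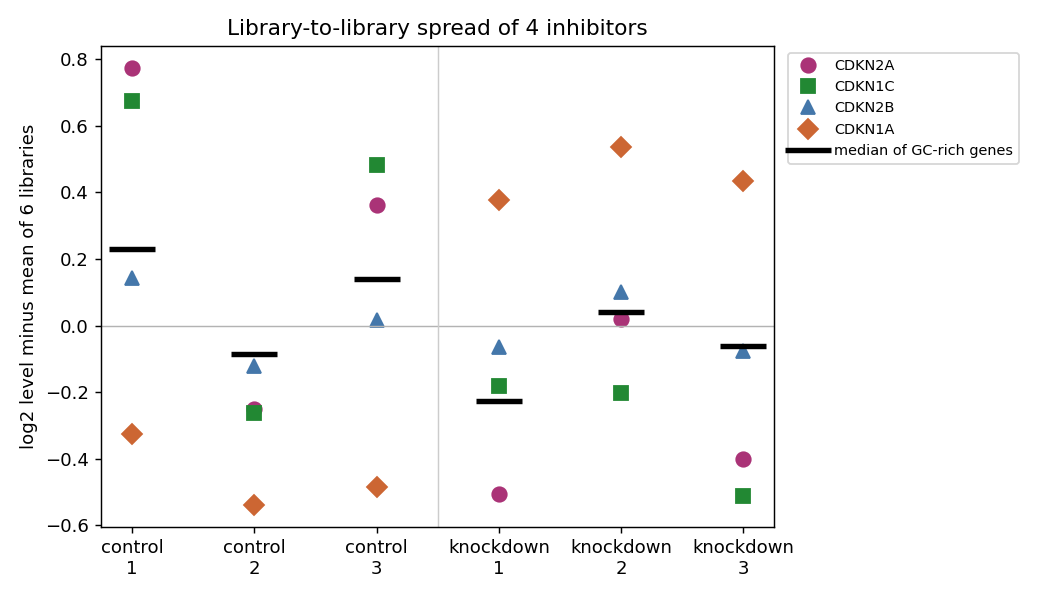
Log2 level minus the mean of the 6 libraries for CDKN2A, CDKN1C, CDKN2B and CDKN1A, with black bars at the median of the 1855 GC-rich genes. CDKN2A spans 0.77 to -0.51 and rises and falls with the bars from library to library, whereas CDKN1A splits by group, from -0.54 to -0.33 in controls and 0.38 to 0.54 in knockdowns.

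CDKN2C (ENSG00000123080.6, hg19 chromosome 1, 51426417 to 51440305, plus strand) and CDKN2D (ENSG00000129355.6, chromosome 19, 10677138 to 10679735, minus strand) encode p18INK4c and p19INK4d, which bind CDK4 and CDK6 as p16INK4a does. CDKN2C was low, at 2.76, 2.66 and 2.90 RPM in controls and 2.69, 3.12 and 3.46 in knockdowns, with overlapping groups and a log2 fold change of 0.15 (95% interval -0.14 to 0.44; limma adjusted p = 0.40). CDKN2D was at 6.37, 7.06 and 7.85 RPM in controls and 5.15, 5.42 and 5.45 in knockdowns, so every knockdown lay below every control. Its log2 fold change was -0.40 (SE 0.10; limma adjusted p = 0.0087, range over the alternatives 0.0049 to 0.090). The CDKN2D call was lost without control replicate 3 (-0.33, limma adjusted p = 0.056), with all libraries thinned to the smallest total (-0.31, 0.074) and after the GC and length correction.

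Among the pocket proteins, RB1 was higher, RBL1 lower and RBL2 without a call. RB1 (ENSG00000139687.9, hg19 chromosome 13, 48877887 to 49056122, plus strand), the tumour suppressor that holds activator E2Fs, was at 44.5, 46.6 and 44.6 RPM in controls and 56.5, 53.7 and 51.0 in knockdowns. The groups did not overlap, and the log2 fold change was 0.25 (SE 0.05; limma adjusted p = 0.0037, range over the alternatives 0.0017 to 0.110). RB1 is AT-rich (37.3% GC) and belongs to the 1855 genes with the lowest GC content, whose median log2 fold change was 0.07. The GC and length correction left RB1 at 0.09 (limma adjusted p = 0.110). LPAR6 and the pseudogene PCNPP5 lie within RB1 on the opposite strand, at up to 8.11 and 13.4 RPM, and the strand setting of the counting is not given in the sources used here.

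RBL1 (ENSG00000080839.7, hg19 chromosome 20, 35624752 to 35724398, minus strand) encodes p107, itself an E2F-regulated gene, whose promoter words are printed above. It measured 5.11, 5.23 and 5.36 RPM in controls and 4.17, 3.80 and 4.35 in knockdowns, with no overlap. The log2 fold change was -0.35 (SE 0.10; limma adjusted p = 0.018, range over the alternatives 0.0017 to 0.077), and -0.48 after the GC and length correction. The RBL1 call was lost without control replicate 3 (-0.33, limma adjusted p = 0.077), without knockdown replicate 2 (-0.30, 0.061) and with all libraries thinned to the smallest total (-0.29, 0.067). A second RBL1 entry, with a suffix to its name, overlaps RBL1 by 211 bases on the opposite strand. That entry reached at most 0.0896 RPM and was left out by the exact name. RBL2 (ENSG00000103479.10, hg19 chromosome 16, 53467889 to 53525561, plus strand) encodes p130, the pocket protein of resting cells and part of the DREAM repressor. AKTIP overlaps its end on the opposite strand, at up to 9.86 RPM. It stood at 43.1, 43.8 and 42.6 RPM in controls and 46.5, 42.3 and 43.1 in knockdowns, with a log2 fold change of 0.03 and a 95% interval of -0.09 to 0.14 (limma adjusted p = 0.74).

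**Figure D3:**
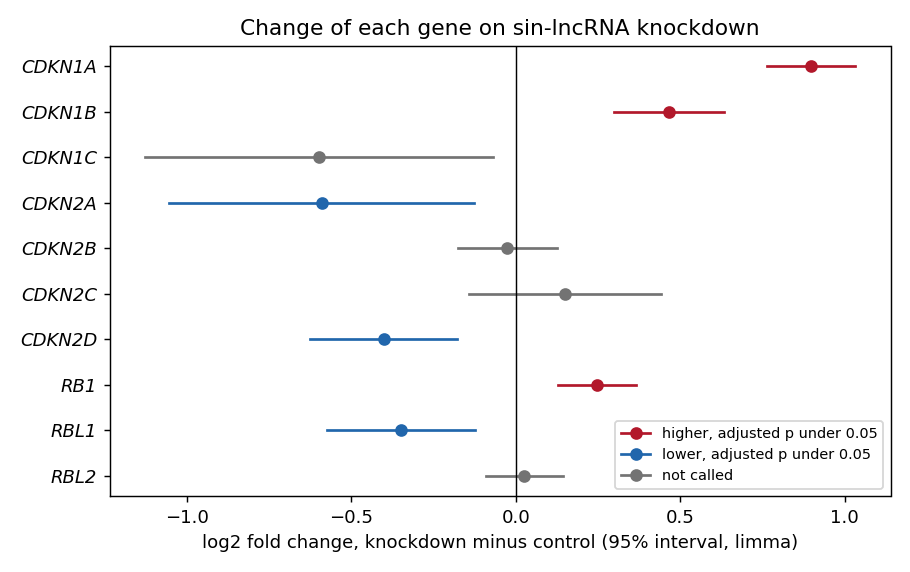
Log2 fold change of each gene, knockdown minus control, with its 95% interval from limma (n = 3 libraries per group), red for higher, blue for lower and grey for genes without a call. CDKN1A has the largest rise (0.90) with a narrow interval, while CDKN1C and CDKN2A have the widest intervals.

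The groups did not overlap for 5 of the 10 genes (CDKN1A, CDKN1B, CDKN2D, RB1 and RBL1), close to the 51.1% of all genes tested. Of the 10 genes, 3 separated upward, where 22.6% of all genes did, and 2 downward, where 28.5% did. By subfamily, 2 of 3 CIP/KIP genes were called higher and 0 lower, 2 of 4 INK4 genes were called lower (CDKN2A with overlapping groups) and 0 higher, and the RB family had 1 call in each direction, where 17.5% of all genes were called higher and 23.5% lower. The subfamilies were not tested against each other. The INK4 median log2 fold change was -0.21 and the CIP/KIP median 0.47.

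For levels between genes, reads were divided by exon length in GENCODE 29 (RPKM). In controls the order was CDKN1A (382 ± 30 RPKM), CDKN2B (80.7 ± 7.4), CDKN2A (15 ± 5.1), RB1 (7.01 ± 0.18), CDKN1B (6.48 ± 0.52), RBL2 (5.90 ± 0.08), CDKN2D (4.72 ± 0.49), RBL1 (0.879 ± 0.021), CDKN2C (0.836 ± 0.036) and CDKN1C (0.766 ± 0.240; all SD, n = 3). RB1 and CDKN1B overlapped in their control ranges, as did CDKN1B and RBL2, RBL1 and CDKN2C, and CDKN2C and CDKN1C. In knockdowns CDKN2A (9.67 ± 1.95 RPKM), CDKN1B (8.94 ± 0.55) and RB1 (8.33 ± 0.42) overlapped in turn, while CDKN1A reached 711 ± 40 RPKM and CDKN2B 79.1 ± 5.6.

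CDKN1A thus made up 77.9% ± 1.0 of the summed per-length level of the 7 inhibitors in controls and 87.4% ± 0.3 in knockdowns (SD, n = 3). CDKN2B held 16.4% ± 0.3 and 9.72% ± 0.25, and CDKN2A 3.01% ± 0.79 and 1.18% ± 0.17. The summed level of the 7 was 490 ± 42 RPKM in controls and 814 ± 47 in knockdowns. Within the RB family, RB1 held 50.8% ± 0.4 and 55.4% ± 1.0, and RBL1 6.38% ± 0.20 and 4.59% ± 0.38. Order and shares depended on the length used. Per length of the longest GENCODE 29 transcript, a choice made after seeing the data, CDKN2A held 7.52% ± 1.89 in controls and 2.99% ± 0.41 in knockdowns, CDKN2B 12.7% ± 0.2 and 7.56% ± 0.19, and CDKN1A 77.7% ± 1.8 and 88.1% ± 0.5. On that scale RBL2 (8.80 ± 0.12 in controls) stood above CDKN1B (6.86 ± 0.55), and CDKN1C (0.981 ± 0.308) above CDKN2C and RBL1 within its spread.

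Ratios of 2 genes within a library are free of the scaling between libraries, and 6 were compared. The trend with GC content and length was not removed from these ratios, and its part in them was not tested. CDKN1A to CDKN2A was 20.7, 36.4 and 24.7 in controls and 82.0, 63.4 and 79.2 in knockdowns, with no overlap. CDKN1A to CDKN2B was 4.72, 4.89 and 4.61 against 8.87, 8.82 and 9.29. RB1 to RBL1 was 8.03, 8.23 and 7.68 against 12.5, 13.0 and 10.8. For these 3, for CDKN1A to CDKN1B and for RB1 to RBL2 the exact two-sided permutation p was 0.1, the smallest that 3 libraries against 3 allow (Benjamini-Hochberg adjusted 0.12 over the 6). CDKN2A to CDKN2B was 0.228, 0.134 and 0.187 in controls and 0.108, 0.139 and 0.117 in knockdowns, which overlapped (exact permutation p = 0.2, adjusted 0.2).

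The genes that the inhibitors act on were read from the same fit. Of 12 cyclin and CDK genes, 7 changed, 1 upward and 6 downward, with a median log2 fold change of -0.27, where 41.0% of all genes were called, 17.5% higher and 23.5% lower. CDK2, the kinase bound by p21 and p27, was at 46.3, 54.5 and 51.5 RPM in controls and 34.5, 29.9 and 29.6 in knockdowns (log2 fold change -0.70, SE 0.08; limma adjusted p = 4.4e-05). CDK6, a target of INK4 proteins, moved the other way, from 93.5 ± 5.1 to 150 ± 6.5 RPM (SD, n = 3; log2 fold change 0.68, limma adjusted p = 3.6e-06). CCND3, a D-type cyclin, fell by 0.56 and the mitotic cyclin CCNB1 by 0.56 on the log2 scale. CDK4 (log2 fold change -0.05) and CCND1 (0.04) did not pass (limma adjusted p = 0.44 and 0.42).

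Of 17 E2F and MuvB genes (MuvB is the core that p130 or B-MYB joins), 16 were tested, with 4 higher and 5 lower, against 17.5% and 23.5% of all genes, and a median log2 fold change of -0.12. E2F1, the activator released from RB, was at 8.25, 9.06 and 9.66 RPM in controls and 4.26, 4.23 and 4.20 in knockdowns. That was a log2 fold change of -1.08 (SE 0.09; limma adjusted p = 8.9e-06), on 95 to 118 reads per knockdown library. E2F3, another activator, went from 33.8 ± 0.83 to 52.9 ± 1.5 RPM (log2 fold change 0.65, limma adjusted p = 3.9e-06), so the 2 activators changed in opposite directions. LIN52, a MuvB subunit, fell by 0.60 and FOXM1, which drives mitotic genes, by 0.57. E2F5, which partners pocket proteins, and the dimer partner TFDP2 were higher by 0.41 and 0.29, and E2F5 had no call after the GC and length correction (log2 fold change 0.26, limma adjusted p = 0.072).

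Of 14 replication genes that E2F is known to drive, 10 were lower and 1 higher, against 23.5% and 17.5% of all genes, and the median log2 fold change was -0.53 against -0.04. MCM6 and MCM5, subunits of the replicative helicase, were at -0.75 and -0.68 and the licensing factor CDT1 at -0.68, while TYMS, which makes thymidylate, was at 0.61.

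**Figure D4:**
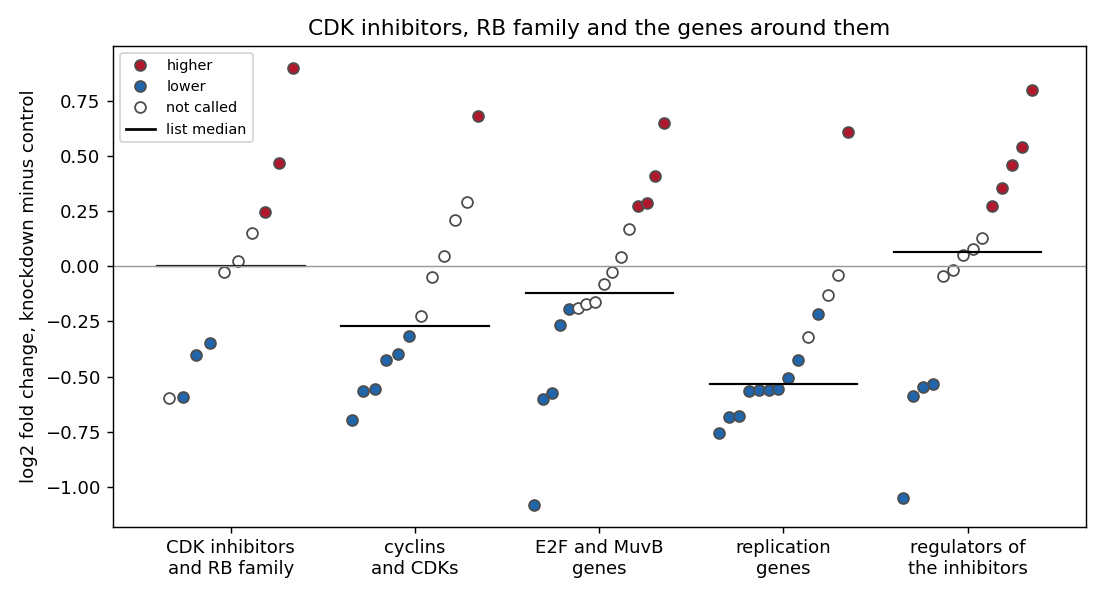
Log2 fold change, knockdown minus control, of the 10 genes and of 4 lists of related genes, with filled points for genes called and lines at list medians. The replication genes lie lowest (median -0.53) apart from TYMS at 0.61, and the other lists hold called genes on both sides of 0.

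Of 15 genes that regulate the inhibitors, 14 were tested, with 5 higher and 4 lower, against 17.5% and 23.5% of all genes, and a median log2 fold change of 0.07. MDM2, a ubiquitin ligase held in check by p14ARF, went from 106 ± 6 to 185 ± 7 RPM (SD, n = 3; log2 fold change 0.80, limma adjusted p = 1.1e-06). DTL, which directs the breakdown of p21 during S phase, went from 5.10 ± 1.36 to 2.40 ± 0.35 RPM (-1.05, limma adjusted p = 0.0016), and CKS1B, a cofactor in the breakdown of p27, was at -0.55. KDM6B, a demethylase that removes a Polycomb mark, was at 0.54 (limma adjusted p = 9.0e-05). ID1, which opposes activation of CDKN2A, was at 40.2, 25.0 and 34.3 RPM in controls and 16.2, 27.1 and 23.2 in knockdowns (-0.59, limma adjusted p = 0.028), with overlapping groups. ID1 had no call when any of control replicate 1 (-0.43), control replicate 3 (-0.55), knockdown replicate 1 (-0.38) or knockdown replicate 3 (-0.64) was left out, and none under robust or untrended variance models or with the replicate block (-0.59, limma adjusted p = 0.081, range over the alternatives 0.0015 to 0.170).

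Among 15114 genes with a mean of at least 50 normalised reads, those whose log2 values over the 6 libraries correlated best with CDKN1A were GDNF, HEPH, DRAM1, NUTF2 and DIXDC1, each with Pearson's r above 0.999, and 2021 genes had r above 0.9. For CDKN2A the closest were ULK1 (r = 0.998), ABHD8, the pseudogene RPS26P6, EFNB1 and the pseudogene CHCHD2P6, and 604 genes had r above 0.9. These values describe 6 libraries that share the group difference, their depths and their GC trend.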

How the data were processed

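The authors deposited 1 table of log2 values, 1 column per library. Its form was worked out from the values: log2 of reads plus 0.5, scaled to an effective library size (log2 CPM). Undoing these gave reads within 0.01 of whole numbers for 100% of values. Bowtie2, featureCounts and build hg19 are named in the submitters' processing notes, without versions; the annotation release and strand setting are not given in the sources used here, so reads of overlapping genes are uncertain.

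Groups and replicate numbers came from the sample titles. The table names the knockdown columns with an ending after si1 that the labels do not explain; columns were matched on replicate number and si1. limma 3.58.1 (R 4.3.3; lmFit, eBayes with trend, two-sided) was run on the deposited log2 values of 19048 genes with a mean of at least 10 normalised reads, with group as the only term and Benjamini-Hochberg adjustment over all of them, called under 0.05. Fold changes carry the 0.5-read offset, which understates changes of low genes. On simulated counts of these 19048 genes with 200 changed, 87.5% were recovered (72.0% at a log2 change of 0.5) and 2.78% of calls were false. The simulated counts had the same dispersion for every gene and no GC trend, so these rates are not error rates of the calls reported here. Replicates differed by 2.83 to 11.1 chi-square units per degree of freedom, so each library counted once. Length and GC content came from GENCODE 29 by gene ID (18546 of 19048 genes) and promoters from RefSeq. Coordinates of genes are those of the table, in hg19. One endothelial marker, PECAM1, was not analysed here.

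Named genes were the 10 members, sin-lncRNA, CDKN2B-AS1, up to 3 rises and 3 falls per list, and the 5 genes most correlated with CDKN1A and CDKN2A. A gene that this rule names is not reported here. CDK4 and CCND1 fall outside this rule and were chosen after their values were seen. The members and lists were chosen with earlier results of these data known. Alternatives were other pseudocounts, filters, scalings and variance models, thinning, a GC and length correction, leaving out each library, and the replicate block.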

Additional observations from a re-analysis of the deposited data

How the results depend on the processing

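CDKN1A and CDKN1B kept direction and call in all 18 alternatives, with log2 fold changes from 0.85 to 1.00 and 0.40 to 0.52. The count of the 10 genes changed lay between 3 and 7 over leave-one-out fits and between 4 and 6 otherwise. The count over all genes lay between 5803 and 7330 over leave-one-out fits and between 6454 and 8243 otherwise, where the number tested differs with the filter. The lowest counts, 3 and 5803, were both without control replicate 3. CDKN2A had no call under TMM scaling (-0.55), robust and untrended eBayes (both -0.59) and with the replicate block (-0.59); leave-one-out values spanned -0.86 to -0.35. CDKN2D was -0.31 and RBL1 -0.29 when thinned, without a call, and CDKN2D was -0.24 and RB1 0.091 after the GC and length correction. Over leave-one-out fits CDKN2D spanned -0.48 to -0.33, RBL1 -0.39 to -0.30 and CDKN1C -0.88 to -0.41. CDKN2B turned to 0.017 under TMM scaling and 0.0064 after quantile normalization, and its leave-one-out values spanned -0.093 to 0.039. RBL2 turned to -0.065 after the GC and length correction, with leave-one-out values of -0.015 to 0.052. The causes were not tested. Filtering at a mean of at least 50 normalised reads removed CDKN1C and CDKN2B-AS1.

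Correlations gave no sign of pairing by replicate number. Libraries with the same number had correlations of -0.15, -0.18 and 0.07 between their deviations from the group mean. Of the 6 libraries, 2 correlated best with their own number. These deviations also carry the GC trend, so the check cannot tell whether the samples were paired. With the replicate block, which leaves fold changes as they are in this balanced design, 6454 genes and 5 of the 10 changed, and the limma adjusted p of sin-lncRNA (-2.86) was 7.0e-05 in place of 7.9e-07. Counts for the 4 related lists stayed within 1.5 times. Of 21 further genes followed through the alternatives, CDKN2B-AS1 had no call to lose and gained none. The others were named because they were called, and 2 of them (E2F5 and ID1) lost their call in some alternative. Reads per library were 29 to 105 for CDKN1C, 60 to 146 for CDKN2C, 89 to 270 for RBL1 and 115 to 395 for CDKN2D. RBL1 and CDKN2D lost their calls when thinned, while CDKN1C and CDKN2C had no call to lose. Thinning was a single random draw.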
